A study of Mus musculus with 3 samples.

Results

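Immunoglobulin variable (V) genes are the germline segments from which the antigen-binding ends of antibodies are built. The members described here are the genes whose symbols begin with Ighv (heavy chain), Igkv (kappa light chain) or Iglv (lambda light chain) and that held at least 10 unique molecular identifiers (UMIs, each standing for 1 captured RNA molecule) over all cells. Of 348 V genes listed among 32285 genes, 124 were members: 66 heavy, 55 kappa and 3 lambda. The members nearest the limit were Ighv6-5 with 10 UMIs and Igkv2-137 with 11, and the nearest genes outside it, such as Ighv1-31 and Igkv3-5, had 9. Members held 30024 of the 30366 UMIs of all V genes. Another 95 V genes had 1 to 9 UMIs and 129 had none.

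The libraries were single-cell RNA profiles of immune cells from the duodenum of mice of the genotype written C57B6/J, described as male in the study's title. The duodenum had been injected intramuscularly with saline (2 libraries) or with recombinant mouse alpha-synuclein preformed fibrils (PFF, 1 library), and tissue was taken on day 30. A CD45-sorted and a CD11b bead-enriched fraction were joined before loading. Saline 1 and PFF 1 carry the batch label 1 and saline 2 the batch label 2, so that 1 PFF library faces 2 saline libraries from different batches. The sources used here give neither the age of the mice nor how many stand behind a library.

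Both saline libraries hold 3 wells with identical cells and counts (1509, 3648 and 8732 cells). They are called shared 1, shared 2 and shared 3, belong to neither saline library alone, and were counted once. The names saline 1 and saline 2 below mean the unshared well of each library, with 5631 and 5734 cells. PFF 1 had 15352 cells. Total UMIs per well lay between 7553070 and 142955760, and the median per kept cell between 3241 and 10130. Saline 2 and PFF 1 shared 119 barcode sequences, 2.08% of the smaller well, where other pairs of wells shared 0.066% to 0.548%. No plasma cell carried a barcode seen in another well.

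Each B cell joins 1 heavy V segment, through D and J segments, to the heavy constant region, and 1 kappa or lambda V segment to a light constant region. Germinal centre B cells mutate these V segments, and plasma cells, the antibody-secreting end stage, devote a large part of their RNA to the finished chains. In the gut most plasma cells make IgA, whose heavy constant region is Igha. The library chemistry reads the 3' end of RNA, near the constant region, so V segment UMIs are a small sample of immunoglobulin RNA.

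Germline sequences are shown first for V genes that recurred as heavy and kappa pairs in separate plasma cells. They come from the GENCODE M21 annotation of GRCm38, the assembly called mm10, which is the build of the files. Each line gives the last 150 bases of the annotated segment in the direction of transcription, with the last in-frame cysteine codon, after which the third complementarity-determining region begins, in capitals. Ighv1-26 lies on the minus strand at chr12:114788372-114788805, Igkv5-48 on the minus strand at chr6:69726573-69727138, Ighv13-2 on the minus strand at chr12:114357759-114358218 and Igkv8-28 on the minus strand at chr6:70143593-70144166. All 4 are annotated as V genes and not as pseudogenes.
Ighv1-26: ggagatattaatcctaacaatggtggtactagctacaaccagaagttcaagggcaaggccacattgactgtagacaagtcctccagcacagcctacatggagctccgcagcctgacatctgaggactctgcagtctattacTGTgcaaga
Igkv5-48: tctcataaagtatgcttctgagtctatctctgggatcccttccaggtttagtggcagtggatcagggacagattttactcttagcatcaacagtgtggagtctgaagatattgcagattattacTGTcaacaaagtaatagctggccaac
Ighv13-2: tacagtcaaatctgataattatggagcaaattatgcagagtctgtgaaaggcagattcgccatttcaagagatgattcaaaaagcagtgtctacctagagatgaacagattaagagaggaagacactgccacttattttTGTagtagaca
Igkv8-28: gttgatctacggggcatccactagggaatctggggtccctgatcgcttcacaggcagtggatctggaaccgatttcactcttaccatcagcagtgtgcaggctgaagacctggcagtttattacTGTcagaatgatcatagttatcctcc

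Cells were put into classes by marker genes, none of them an immunoglobulin gene, which gave 69 plasma cells, 248 germinal centre B cells, 865 other B cells and 27378 T cells. The plasma gate uses Jchain, the chain that joins IgA and IgM units, so plasma cells of other isotypes may be under-counted. Another 279 cells met a B lineage rule but also held T cell receptor complex UMIs and were left out as mixed; 32 of them met the plasma rule, and these held 8377 V UMIs. Genes outside the gates gave the following levels. Igha was found in all 69 plasma cells, at 127535 CPM (the UMIs of a gene scaled to a common total of UMIs in the class). It was also detected in 36.6% of T cells, at 84.0 CPM. The main heavy constant gene was Ighm in 2 plasma cells of shared 3, Ighg2b in 1 of PFF 1 and Igha in the rest. The proliferation marker Mki67 was detected in 75.4% of germinal centre B cells, 24.6% of plasma cells and 1.62% of other B cells. Ighd, the IgD constant gene of naive B cells, was detected in 91.3% of other B cells and in none of the plasma cells. Of the markers of other cell types, Epcam (epithelium) was detected in 55.1% of plasma cells, 4.84% of germinal centre B cells, 5.90% of other B cells and 47.9% of T cells. In plasma cells the epithelial genes Apoa1, Fabp1 and Vil1 were detected in 11.6%, 4.35% and 1.45%, and the goblet cell gene Muc2 in 1.45%. The myeloid genes Lyz2 and C1qa were each detected in 1.45% of plasma cells and Csf1r in none. The mast cell gene Mcpt1 was detected in 5.80% of them and Cpa3 in none. Bst2 and Irf8, checked as genes of plasmacytoid dendritic cells, were detected in 85.5% and 11.6% of plasma cells. The part of such cells in the V gene values was not tested.

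Plasma cells carried about 1% of their UMIs in V genes. The share was 0.910% in shared 1 (exact binomial 95% interval 0.835 to 0.991), 0.848% in shared 2 (0.772 to 0.929), 1.09% in shared 3 (1.06 to 1.11), 1.18% in saline 1 (1.06 to 1.31), 0.868% in saline 2 (0.826 to 0.911) and 0.974% in PFF 1 (0.944 to 1.01). PFF 1 lay between the saline wells, whose mean was 1.02% ± 0.221 (SD, n = 2). All intervals cover counting error only, not the spread between animals. There were 3, 7 and 13 plasma cells in saline 1, saline 2 and PFF 1, below the 15 per library set for a test, so no V gene was tested between treatments in plasma cells.

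Germinal centre and other B cells held far less V gene RNA than plasma cells, 0.0183% and 0.0231% of UMIs over all wells, and T cells held 0.000638%. In other B cells the share was 0.0145% in saline 1, 0.0617% in saline 2 and 0.0196% in PFF 1, so PFF 1 again lay between the saline wells. A single saline 2 cell held 81.6% of the V UMIs of that well's other B cells. In germinal centre B cells the share was 0.00759% in saline 1, 0.0864% in saline 2 and 0.0171% in PFF 1. Of the 7 saline 2 cells, 1 held 90.3% of that well's V UMIs. That cell had 3626 Igha, 2685 Jchain and 80 Xbp1 UMIs and no Ms4a1. Its germinal centre markers placed it in this class. Without the top cell of each well the share over all wells was 0.0124% in germinal centre B cells, 0.0152% in other B cells and 0.934% in plasma cells.

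**Figure D1:**
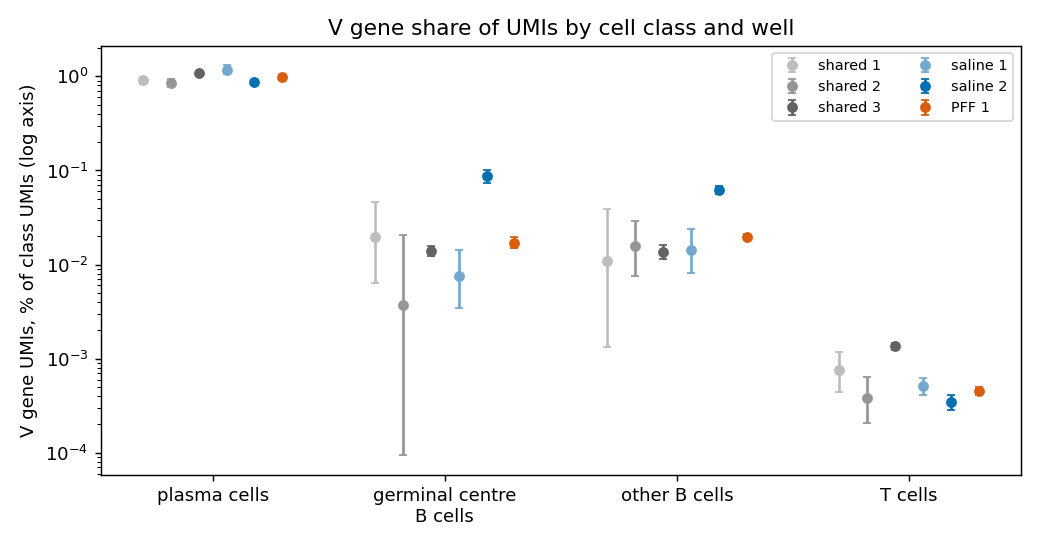
V gene UMIs as a percentage of all UMIs of each cell class (log axis) in each of the 6 wells; points are wells and bars are exact binomial 95% intervals. Plasma cells lie between 0.848% and 1.18% in every well, and saline 2 stands above the other wells in germinal centre B cells (0.0864%) and other B cells (0.0617%).

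Most plasma cells showed 1 heavy V gene and, among kappa genes, 1 kappa V gene almost without admixture. A heavy V gene was assigned where a cell had at least 3 heavy V UMIs and 1 gene held at least 80% of them. Of 63 plasma cells with enough UMIs, 60 had such a leading heavy gene (95.2%), and the leading gene's median share was 100%. Among kappa genes alone, 64 of 67 plasma cells had a leading gene (95.5%), again with a median share of 100%. In the 3 heavy exceptions, the leading gene held between 50% and 76% of the cell's heavy V UMIs. When kappa and lambda genes were counted together, only 20 of 68 plasma cells had a leading light chain gene, because Iglv1 UMIs were present in most cells, as described below.

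**Figure D2:**
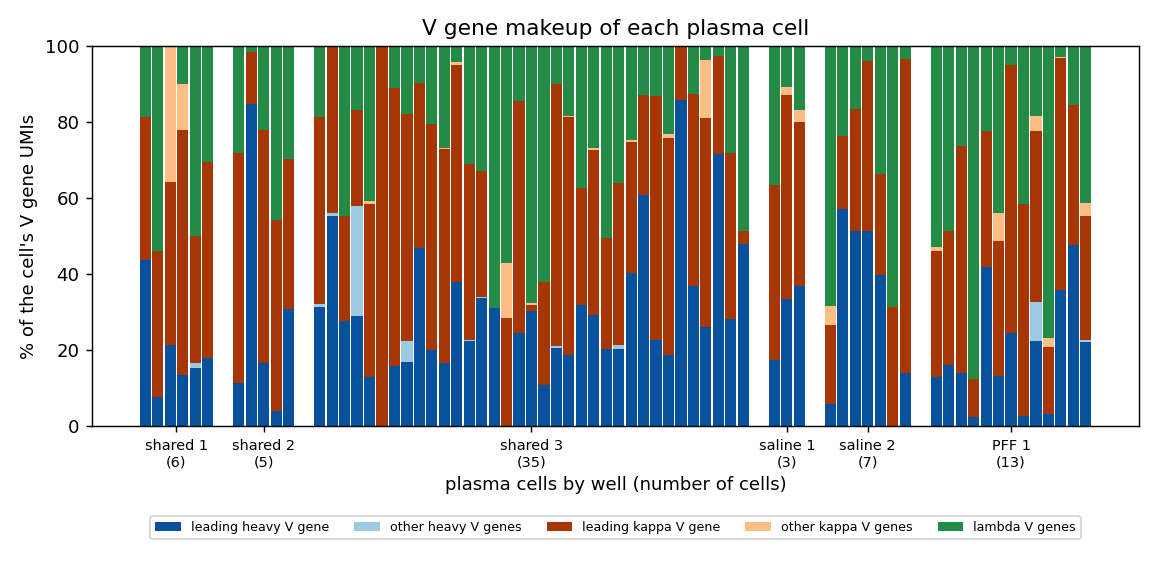
Makeup of the V gene UMIs of each of the 69 plasma cells (1 bar per cell, grouped by well), in percent of the cell's V gene UMIs. The dark blue and dark red parts are the leading heavy and leading kappa gene; pale parts (other heavy and kappa genes) are thin in most cells, while the green part (lambda genes) is present in nearly all.

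The plasma cells used many different heavy V genes. The 60 assigned cells were led by 37 heavy genes, 25 of them in 1 cell each. Ighv1, the largest mouse heavy V family, led 37 of the 60 cells (61.7%) through 19 of its genes, and no other heavy family led more than 3 cells. Most of the heavy members are Ighv1 genes too, and the family held 50% of plasma heavy V UMIs. A preference for the family was not tested. Ighv1-26 and Ighv1-64 each led 7 plasma cells. Ighv1-26 led 2 cells each in shared 1, shared 2 and shared 3 and 1 in PFF 1, and none in the few plasma cells of saline 1 and saline 2. Ighv1-64 led 5 cells in shared 3, 1 in shared 1 and 1 in saline 2. Ighv1-78 led 3 cells, 1 in saline 2 and 2 in PFF 1, while Ighv1-22 and Ighv1-54 led 2 cells each.

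The heavy gene with the most UMIs was not one of those that led the most cells. Ighv1-19 had 382 UMIs in plasma cells, all in 1 cell of PFF 1. Ighv1-64 had 326 UMIs in 7 cells, Ighv1-76 239 in 3, Ighv13-2 210 in 5 and Ighv7-3 207 in 2. Ighv1-26 had 156. The leading heavy gene by UMIs differed in every well: Ighv5-12 in shared 1 (33 UMIs), Ighv1-54 in shared 2 (56), Ighv1-64 in shared 3 (264), Ighv10-1 in saline 1 (55), Ighv6-3 in saline 2 (166) and Ighv1-19 in PFF 1 (382). In 5 of these 6 wells all the UMIs of that gene came from 1 cell, and shared 3, with 35 plasma cells, was the exception.

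Kappa usage was as varied. The 64 cells with a leading kappa gene were led by 35 genes, 21 of them in 1 cell each. Among the 64, a cell of shared 3 led by Igkv5-45 and another led by Igkv6-15 were lambda by constant genes. They had 10918 and 5067 Iglc1 UMIs against 78 and 822 of Igkc, and 4 UMIs each of that kappa gene. The Igkv4 family, the largest kappa family among the members, led 16 cells (25%) through 10 genes and held 15.5% of plasma kappa V UMIs. The Igkv1 family led 12 (18.8%) through only 2 genes and held 22.9%. Those 2 were Igkv1-110 and Igkv1-117, which led 6 cells each, as did Igkv5-48. Igkv4-80 led 4 cells, 3 of them in shared 3, and Igkv16-104 led 3.

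By UMIs, Igkv1-110 had 762 in plasma cells: 450 in shared 3, 52 in saline 2, 260 in PFF 1 and none in shared 1, shared 2 or saline 1. Igkv8-28 had 704 UMIs in 2 cells, 495 in saline 2 and 209 in PFF 1. Igkv1-117 had 624 UMIs, of which 465 were in shared 3, 94 in shared 1 and 58 in saline 1. Igkv16-104 had 483 and Igkv3-1 had 415, and 448 and 373 of these lay in shared 3. The other wells were led by Igkv5-39 (96 UMIs, shared 1), Igkv6-15 (71, shared 2), Igkv14-111 (64, saline 1) and Igkv2-112 (296, PFF 1), each in 1 cell. With so few plasma cells in a well, a gene's UMIs there describe single cells rather than the treatment.

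Several members resemble another V gene closely, and the reads could be split or lost between such copies. The median identity of a member to its nearest V gene, over whole annotated segments, was 92.2%, and 33 of the 124 members had a relative at 95% or more. Igkv1-110 and Igkv1-117 are 96.8% identical, with 13 edits over about 400 bases, and 4 edits in the last 150. Ighv1-26 is 96.9% identical to Ighv1-18, and Igkv8-28 is 97.6% identical to Igkv8-19. Values of these genes are uncertain to that extent, as are those of mutated segments.

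Most heavy and kappa pairs occurred once. A heavy and a kappa gene could both be assigned in 56 plasma cells, which showed 50 pairs, and 3 pairs recurred. The 56 include the shared 3 cells led by Igkv5-45 and Igkv6-15 that were lambda by constant genes, so their pairs are not those of the main light chain. Ighv1-26 with Igkv5-48 was found in 5 plasma cells: 1 in shared 1, 2 in shared 2, 1 in shared 3 and 1 in PFF 1. In the order shared 1, shared 2 (2 cells), shared 3 and PFF 1, their Ighv1-26 counts were 7, 8, 3, 67 and 29 UMIs and their Igkv5-48 counts were 6, 43, 11, 138 and 124. These were the complete heavy and kappa V UMIs of each cell but for 1 heavy UMI in the shared 3 cell. All 5 had Igha as their main heavy constant gene.

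Ighv13-2 with Igkv8-28 was found in 1 plasma cell of saline 2 (83 Ighv13-2 and 495 Igkv8-28 UMIs) and in 1 of PFF 1 (82 and 209). Ighv1-64 with Igkv3-1 was found in 2 cells of shared 3. Ighv1-26 and Igkv5-48 thus recurred together in both saline and PFF material, and so did Ighv13-2 and Igkv8-28. None of these cells carried a barcode found in another well. No junction sequence was measured, so a shared pair does not show a shared clone.

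Igkv5-48 accompanied Ighv1-26 in 5 of the 6 plasma cells it led. The 2 other cells led by Ighv1-26 were led by Igkv5-39 (shared 1) and Igkv4-80 (shared 3) among kappa genes. The shared 1 cell, with 96 of its 114 kappa V UMIs from Igkv5-39, held Igkv5-48 too. Plasma cells of shared 1 had 24 Igkv5-48 UMIs, 6 in the cell with the pair and the rest in this one. The Igkv5-48 UMIs of germinal centre B cells came from the 1 saline 2 cell described above, which had 92 of them beside 21 of Ighv14-1.

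In germinal centre B cells V gene usage was sparse. A V gene UMI was detected in 66.1% of them, and in 14.1% after each cell was thinned to 1000 UMIs. In other B cells these shares were 46.1% and 12.9%, and in T cells 4.65% and 0.706%. Thinning left out 0, 7 and 179 cells of less depth, in the same order. The median depths before thinning were 11585, 5824 and 6851 UMIs. Only 10 of 248 germinal centre B cells could be given a heavy gene, and 10 different genes led them. Among 21 germinal centre cells with a leading kappa gene, Igkv12-44 led 3, and Igkv12-46, Igkv1-117, Igkv5-39 and Igkv6-20 led 2 each. Igkv12-44 and Igkv12-46 were found in 14 and 15 germinal centre B cells and had no UMI in gated plasma cells. Most of their UMIs over all cells lay in the mixed cells left out: 575 of 626 for Igkv12-44 and 588 of 648 for Igkv12-46. Of these, 439 and 580 were in 3 and 2 mixed cells that met the plasma rule. Besides Igkv5-48, the highest kappa count was that of Igkv3-9, with 47 UMIs in 1 PFF 1 cell. The highest heavy counts were 23 for Ighv14-1, 14 each for Ighv1-64 and Ighv14-2, 12 for Ighv1-67 and 11 for Ighv3-6. Ighv3-6 UMIs were spread over 9 cells.

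Other B cells gave V genes in low counts, apart from a handful of cells rich in immunoglobulin RNA. Igkv8-27 had the most UMIs, 205, of which 203 lay in 1 saline 2 cell that also held 111 UMIs of Ighv7-3. This cell had 2304 Ighm, 905 Jchain and 82 Mzb1 UMIs beside 11 of Ms4a1. In PFF 1, 1 cell paired Ighv7-1 (40 UMIs) with Igkv2-112 (58), and another paired Ighv10-3 (49) with Igkv17-127 (61); they held 3449 Ighm and 2787 Igha UMIs respectively. The gene that led most other B cells was Igkv1-117, with 8 of 31 assigned kappa cells, 6 of them in PFF 1. Igkv1-110 led 5 cells, all in PFF 1, and Igkv12-46 led 4. PFF 1 supplied 499 of the 865 other B cells and 3862287 of their 5676010 UMIs, so these counts by well show no preference by treatment. Igkv1-117 and Igkv1-110 were detected in 30 and 29 other B cells. Ighv1-26 was detected in 17 and led 2.

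Between treatments, UMI sums of other B cells from saline 1, saline 2 and PFF 1 were compared with edgeR's quasi-likelihood test, Benjamini-Hochberg adjusted over all 7954 genes tested. PFF 1 is assumed to vary like saline, and 1 residual degree of freedom remains. Of the 124 members only 5 passed the filter on low counts, and 2 of them were called. A gene high enough in 1 library passes this filter, since the PFF group has 1 library. Igkv8-27 and Ighv7-3, the 2 called, passed through saline 2 alone, and Igkv17-127 through PFF 1 alone. These genes were thus tested because 1 side was high, and their p-values are not independent of that choice. Over all genes 4 were called, 0.0503% of those tested. Igkv8-27 had 0, 204 and 1 UMIs in saline 1, saline 2 and PFF 1, a fitted log2 fold change of -9.26 ± 0.926 (SE; edgeR adjusted p = 6.0e-10) whose size depends on the prior count, since 1 UMI stands on the PFF side. Ighv7-3 had 0, 111 and 0 UMIs (edgeR adjusted p = 1.45e-09). The high value was in saline 2 alone, the 1 library of batch 2. Within batch 1, saline 1 and PFF 1 had 0 and 1 UMIs of Igkv8-27 and 0 and 0 of Ighv7-3. The fit has no batch term, since with 3 libraries such a term leaves no residual degree of freedom. Saline 1, the shallowest of the 3, had 103797 UMIs in all, against 633249 and 3862287.

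Both calls rest on the single saline 2 cell rich in V gene UMIs. Without the top cell of each well and class, only 2 members were tested and none was called, with none at an unadjusted p under 0.05 either. Over all genes 7 of 7852 were called in that setting. DESeq2 called none of 94 members and none of 15986 genes (0 and 31 at an unadjusted p under 0.05). The fit with the shared wells as another saline library called none of 8 members and none of 8798 genes (5 and 125 at an unadjusted p under 0.05). The fit with stricter gates called none of 5 members and none of 7894 genes (2 and 32 at an unadjusted p under 0.05). Where no gene was called, the lack of V gene calls is not particular to V genes. The members not called were Igkv17-127 (0, 2 and 64 UMIs; log2 2.65 ± 1.59), Igkv1-117 (2, 7 and 78 UMIs; log2 0.69 ± 0.869) and Iglv3 (3, 7 and 53 UMIs; log2 -0.13 ± 1.10), each with an edgeR adjusted p of 1.00. The median log2 fold change of the 5 members was -0.13, beside -0.00011 over all genes tested. With 1 saline library left out, plain log2 CPM ratios of PFF 1 to the other were taken, with no fit. The members' median was then 0.29 without saline 1 and 0.07 without saline 2. The median thus changed sign both times, though the measure differed as well. It also moved with the genes admitted: 2.38 over 94 members with no low-count filter (66 higher, 28 lower), -0.40 over 94 with DESeq2 (37 higher, 57 lower), 1.08 over 8 with the shared wells as another saline library and -2.57 over 8 with up to 5 UMIs of Cd3d, Cd3e and Cd3g allowed per cell. No direction for the members as a group can be read from it.

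Of the companion genes of antibody production, 20 of 30 could be tested in other B cells and 1 was called. Igha had 1, 24 and 5392 UMIs in saline 1, saline 2 and PFF 1 (log2 5.46 ± 0.406; edgeR adjusted p = 2.13e-14). Of the PFF 1 UMIs, 5197 lay in 2 of 499 cells. The call was lost with DESeq2, with the shared wells as another saline library and with stricter gates, where no gene at all was called. The constant genes Igkc and Ighm were not called (log2 0.22 ± 0.411 and 0.03 ± 0.357), nor were Cd79a and Cd79b, the signalling partners of the B cell receptor, Jchain, which joins IgA and IgM units, or the octamer factor Pou2f2 and its coactivator Pou2af1. The recombinase genes Rag1 and Rag2 had no UMI in plasma, germinal centre or other B cells.

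Lambda usage depended on which end of the RNA was counted. The lambda V genes are Iglv1, Iglv2 and Iglv3, on the minus strand of chromosome 16. In plasma cells they made up 41.1% of light chain V UMIs over all wells: 36.1% in shared 1, 40.7% in shared 2, 38.4% in shared 3, 31.2% in saline 1, 34.7% in saline 2 and 50.3% in PFF 1. By constant genes (Iglc1, Iglc2 and Iglc3 against Igkc), lambda made up 7.36% over all wells: 1.05%, 0.472%, 12.4%, 2.47%, 1.62% and 4.05% in the same order. Lambda shares by V genes thus lay above those by constant genes in each well. In other B cells the V and constant measures gave 16.6% and 16.3% over all wells, but they parted in both directions by well: 23.2% and 34.0% in shared 3, 3.85% and 10.4% in saline 2, and 21.5% and 16.1% in PFF 1. In germinal centre B cells they gave 14.8% and 8.81% over all wells.

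Nearly all lambda V UMIs were Iglv1. It was the V gene with the most UMIs in plasma cells, 4086 of 14027 (29.1%), and was present in 65 of the 69 cells. By well it had 152, 127, 1937, 77, 395 and 1398 plasma cell UMIs in the order above. By constant genes, 66 plasma cells were kappa and 3 were lambda, the latter all in shared 3. The lambda cells had 12668, 10918 and 5067 Iglc1 UMIs and 294, 174 and 54 Iglv1 UMIs. Yet 62 of the 66 kappa cells also held Iglv1, with a median of 24.5 and up to 571 UMIs.

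The cell with 571 Iglv1 UMIs, in PFF 1, had 26093 Igkc UMIs and 43 of Iglc1. Its leading genes were Ighv1-78 and Igkv17-121. Over the 66 kappa plasma cells, Spearman's rho of Iglv1 with Igkc was 0.54, with the heavy constant gene 0.57, with the cell's total UMIs 0.59 and with Iglc1 0.33. These are descriptions over cells that share libraries and depth. Kappa V UMIs followed Igkc with rho 0.82. In 1 PFF 1 cell, Igkc (4923 UMIs) and lambda constant genes (4645 UMIs, mostly Iglc3) were nearly equal, with 70 Iglv1 UMIs.

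**Figure D3:**
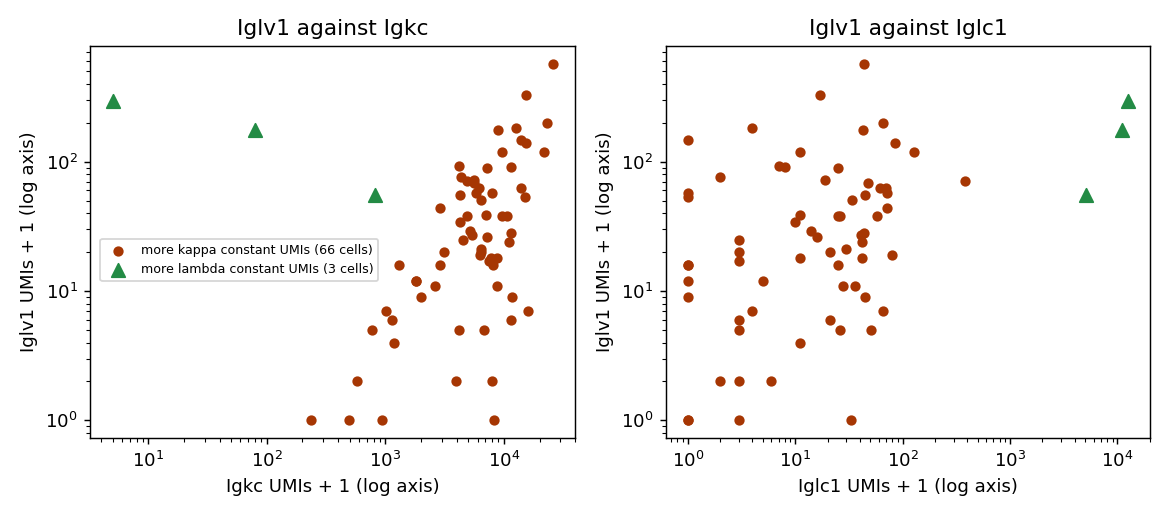
Iglv1 UMIs against Igkc (left) and Iglc1 (right) UMIs in each of the 69 plasma cells, all plus 1 on log axes. Circles are the 66 cells with more kappa constant UMIs and triangles the 3 cells with more lambda constant UMIs; kappa cells span 0 to 571 Iglv1 UMIs, so the lambda cells do not stand apart on the vertical axis.

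Over all wells together, the Iglv1 level was higher relative to light chain constant RNA in plasma cells than in germinal centre and other B cells. Per 100 light chain constant UMIs there were 0.777 Iglv1 UMIs in plasma cells, 0.127 in germinal centre B cells and 0.0936 in other B cells. In single wells the ratio was 0.517 to 0.951, 0 to 1.40 and 0 to 0.274 in the same order. The 1.40, in shared 1, rested on 2 Iglv1 UMIs. The Jchain-rich saline 2 germinal centre cell described above held 23255 of its class's 41079 Igkc UMIs and 25 of its 57 Iglv1 UMIs. Another 13 of the 57 lay in 1 PFF 1 cell. Among kappa cells by constant genes, Iglv1 was found in 16 of 231 germinal centre B cells (6.93%) and in 25 of 721 other B cells (3.47%). In the kappa plasma cells of each well the median Iglv1 count per 100 light chain constant UMIs was 0.339, 0.213, 0.497, 0.520, 0.233 and 0.531 in shared 1, shared 2, shared 3, saline 1, saline 2 and PFF 1, with overlapping ranges.

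The other lambda genes behaved differently. Iglv3 had 122 UMIs in 41 plasma cells, 20 in 20 germinal centre B cells and 68 in 51 other B cells. Iglv2 had 5, 0 and 8. Iglv1 and Iglv2 are the close pair of the locus, at chr16:19085017-19085500 and chr16:19260401-19260859, 90.8% identical over their annotated segments. Their last 150 bases differ at 5 positions, which are in capitals here.
Iglv1: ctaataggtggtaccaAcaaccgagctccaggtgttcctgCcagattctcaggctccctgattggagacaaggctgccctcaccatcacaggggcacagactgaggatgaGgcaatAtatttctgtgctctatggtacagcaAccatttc
Iglv2: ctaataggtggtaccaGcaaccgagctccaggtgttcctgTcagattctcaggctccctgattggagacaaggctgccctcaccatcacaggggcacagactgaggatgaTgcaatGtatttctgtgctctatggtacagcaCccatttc

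T cells do not make antibody, so V gene UMIs in them were counted as a measure of free RNA, which droplets take up from other cells. T cells held 1396 member UMIs, 6.38 CPM. The level was 13.5 CPM in shared 3 (exact Poisson 95% interval 12.5 to 14.6), which had 35 of the 69 plasma cells. It was 7.50 in shared 1, 3.78 in shared 2, 5.11 in saline 1, 3.43 in saline 2 and 4.53 in PFF 1. The 35 plasma cells of shared 3 were among 8503 kept cells, and the 6 of shared 1 among 993. Mixed cells of shared 3 held 8056 V UMIs, beside 7356 in its plasma cells. Igkc in T cells was likewise highest in shared 3, at 335 CPM, against 8.05 to 34.2 in the other wells. Igha and Jchain were highest there as well, at 242 and 47.4 CPM. Ighm was not: it ran from 138 CPM in PFF 1 to 218 in shared 1, with 208 in shared 3. T cells with a V gene UMI made up 8.31% in shared 3 and 1.63% to 4.27% elsewhere.

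Part of the T cell V UMIs followed shared 3. Iglv1 had 95 of its 104 T cell UMIs there, Igkv16-104 23 of 24, and Igkv5-48 and Igkv10-96 all of 17 and 15. In shared 3 plasma cells these genes had 1937, 448, 182 and 68 UMIs. Of the 17 T cell UMIs of Igkv5-48 none was in PFF 1, although PFF 1 had 108100267 T cell UMIs and 124 Igkv5-48 UMIs in plasma cells. For lambda genes together the T cell level was 2.04 CPM in shared 3 (1.66 to 2.49) and 0.0703 in the other wells (0.0363 to 0.123).

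Igkv1-110, by contrast, was found in T cells of every well. It gave 534 UMIs in 486 T cells, 38.3% of all their V gene UMIs. Its level was 3.33 CPM in shared 1 (1.44 to 6.57), 2.16 in shared 2 (0.933 to 4.26), 4.25 in shared 3 (3.68 to 4.87), 1.89 in saline 1 (1.31 to 2.64), 1.43 in saline 2 (1.08 to 1.86) and 2.08 in PFF 1 (1.82 to 2.37). Shared 1, shared 2 and saline 1 had no Igkv1-110 UMI in their 6, 5 and 3 gated plasma cells. The mixed cells left out held 496 Igkv1-110 UMIs over all wells (97.5 CPM). Cells in no class held it at 0.407 CPM (0.252 to 0.622), below the 2.44 (2.24 to 2.66) of T cells. Its close relative Igkv1-117, with 624 plasma cell UMIs, had 7 in T cells.

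The T cell gene next in count was Igkv14-111, with 151 UMIs in 148 cells and UMIs in every well. Its level ran from 0.278 CPM in saline 1 (0.0901 to 0.648) to 0.979 in shared 3 (0.719 to 1.30). Plasma cells held 69 Igkv14-111 UMIs, 64 of them in 1 saline 1 cell, and the mixed cells left out held 195 (38.3 CPM). Igkv14-111 and Igkv1-110 are neighbours on the plus strand of chromosome 6, at chr6:68256389-68256869 and chr6:68270485-68271267, with 13.6 kb between them. Their segments are 63.3% identical. The last 150 bases of these genes and of Igkv1-117 are given with the cysteine codon in capitals.
Igkv14-111: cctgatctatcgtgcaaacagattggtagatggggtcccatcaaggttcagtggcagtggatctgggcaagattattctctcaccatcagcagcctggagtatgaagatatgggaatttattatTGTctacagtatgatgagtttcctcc
Igkv1-110: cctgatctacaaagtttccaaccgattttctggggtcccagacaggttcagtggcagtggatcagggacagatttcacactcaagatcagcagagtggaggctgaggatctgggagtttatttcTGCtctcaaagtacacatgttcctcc
Igkv1-117: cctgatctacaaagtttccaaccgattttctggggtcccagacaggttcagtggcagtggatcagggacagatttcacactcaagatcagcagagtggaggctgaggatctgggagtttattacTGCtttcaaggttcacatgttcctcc

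T cells with and without an Igkv1-110 UMI were compared by their receptor genes, without a test. Cd8a was detected in 96.7% of the 486 T cells with a UMI and in 92.8% of the 26892 without, and Trdc, the delta chain constant gene, in 67.9% and 63.7%. The median depths were 8654 and 6812 UMIs.

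**Figure D4:**
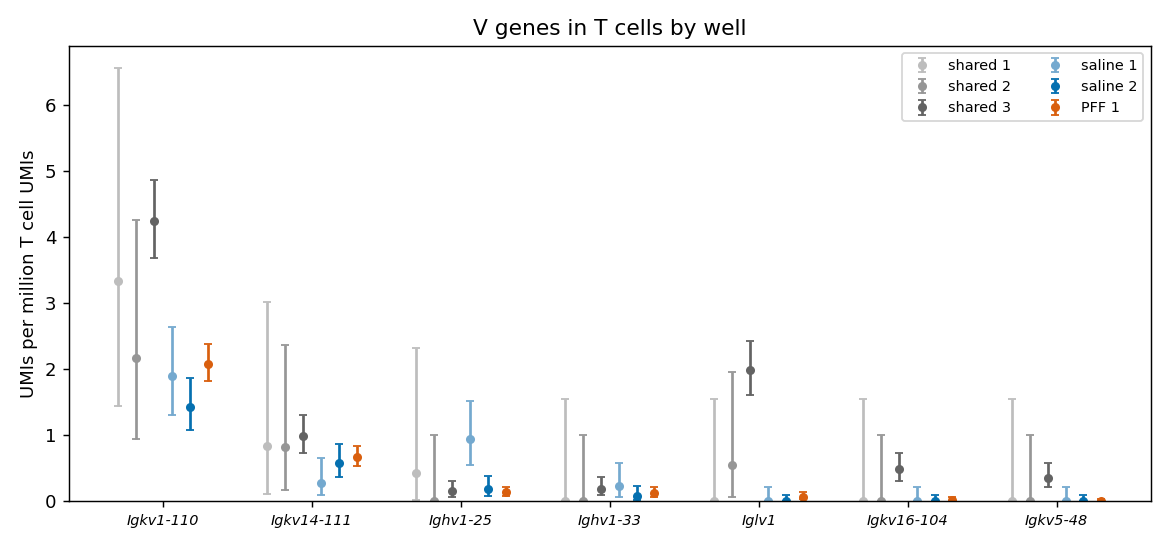
CPM, over T cell UMIs, of 7 V genes in each well, with exact Poisson 95% intervals (counting error only). Igkv1-110 and Igkv14-111 are above 0 in all 6 wells, while Iglv1, Igkv16-104 and Igkv5-48 are highest in shared 3 and at or near 0 in saline 1, saline 2 and PFF 1.

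Some V genes, most of them heavy, were seen in T cells and in no gated B lineage class. Among the 124 members, 10 had T cell UMIs and none in plasma, germinal centre or other B cells, and 5 of the 10 are annotated as pseudogenes. T cells were far deeper, with 218759189 UMIs against 1384694, 3706318 and 5676010 in the B lineage classes. A count of 0 allows up to 3 UMIs, or 2.17, 0.809 and 0.529 CPM in plasma, germinal centre and other B cells, all above the T cell level of Ighv1-25 (0.210 CPM) and of Ighv1-33 (0.133 CPM). A lower level in B lineage cells was thus not detectable at this depth. The 2 kappa genes among them, Igkv5-37 and Igkv8-16, had 4 and 1 T cell UMIs and 497 and 88 over all cells, mixed cells included. Pseudogenes are 6 of the 124 members and 130 of the 348 V genes in the files. Ighv1-25, a pseudogene, led the heavy genes of T cells with 46 UMIs in 46 cells: 1 in shared 1, 7 in shared 3, 17 in saline 1, 7 in saline 2 and 14 in PFF 1. Its level was highest in saline 1, at 0.944 CPM (0.550 to 1.51). Ighv1-33, also a pseudogene, had 29 UMIs in 28 cells of 4 wells, and Ighv1-82, a V gene with 9 UMIs in B cells, had 32 in 32. Cells in no class held 2 UMIs of Ighv1-25 and none of Ighv1-33.

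Together the 10 genes stood at 0.666 CPM in shared 3 (0.456 to 0.941) and 0.679 in the other wells (0.561 to 0.815). They were chosen for having no UMI in plasma or B cells, shared 3 included, so a level that does not rise with plasma cells is in part fixed by that choice. The 112 members that are neither among these 10 nor Igkv1-110 or Igkv14-111 stood at 7.64 CPM in shared 3 (6.88 to 8.46) and 1.15 elsewhere (0.993 to 1.32). The groups were formed after the values were seen and are given without a test.

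Of the 10, 5 lie close together in the heavy locus. A stretch of 132 kb, chr12:114764450-114896671, runs from Ighv1-23 to Ighv1-37 and holds 9 members: Ighv1-23, Ighv1-25, Ighv1-26, Ighv1-27, Ighv1-29, Ighv1-33, Ighv1-34, Ighv1-36 and Ighv1-37. All 9 had T cell UMIs, 159 in all or 38.3% of the heavy V UMIs of T cells, and 6 of them had no plasma cell UMI. The same 9 genes held 6.70% of the heavy V UMIs of plasma cells. The bounds of the stretch were chosen after the values were seen. Ighv1-25 at chr12:114781409-114781834 and Ighv1-33 at chr12:114843651-114844083, both on the minus strand, are 90.9% identical to each other, and Ighv1-33 is 95.7% identical to Ighv1-26, so some of its reads may belong to another copy. The last 150 bases of Ighv1-33 are shown in lower case, since a pseudogene has no assured reading frame.
Ighv1-33: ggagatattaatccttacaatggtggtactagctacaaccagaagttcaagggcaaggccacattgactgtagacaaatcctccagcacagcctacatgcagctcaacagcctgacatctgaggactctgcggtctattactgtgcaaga

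Kappa V RNA was also set against kappa constant RNA. Plasma cells had 1.24 Igkv UMIs per 100 Igkc UMIs over all wells and 0.797 to 1.77 in single wells. In shared 3 T cells the ratio was 2.46, against 1.46 in the plasma cells of that well. In T cells of the other wells it was 13.4 (shared 1), 13.1 (shared 2), 29.0 (saline 1), 20.5 (saline 2) and 9.83 (PFF 1). Igkv1-110 and Igkv14-111 made up most of the excess over plasma cells. Without these 2 genes, left out after the values were seen, the T cell ratio was 1.22 in shared 1, 0 in shared 2, 0.901 in shared 3, 2.07 in saline 1, 0.767 in saline 2 and 1.01 in PFF 1. It rested on 1, 0, 145, 3, 3 and 34 kappa V UMIs. The plasma cell ratio without them was 1.38, 0.797, 1.25, 1.14, 1.01 and 0.818 in the same order. Across the 124 members, Spearman's rho between T cell and plasma cell UMIs of the same well was 0.17 in shared 1, 0.28 in shared 2, 0.27 in shared 3, 0.23 in saline 1, 0.04 in saline 2 and 0.15 in PFF 1, over genes that are not independent. Values between different wells reached 0.36 (T cells of shared 2 with plasma cells of shared 1), so a well's T cells were not always closest to its own plasma cells. The source of these UMIs was not tested.

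**Figure D5:**
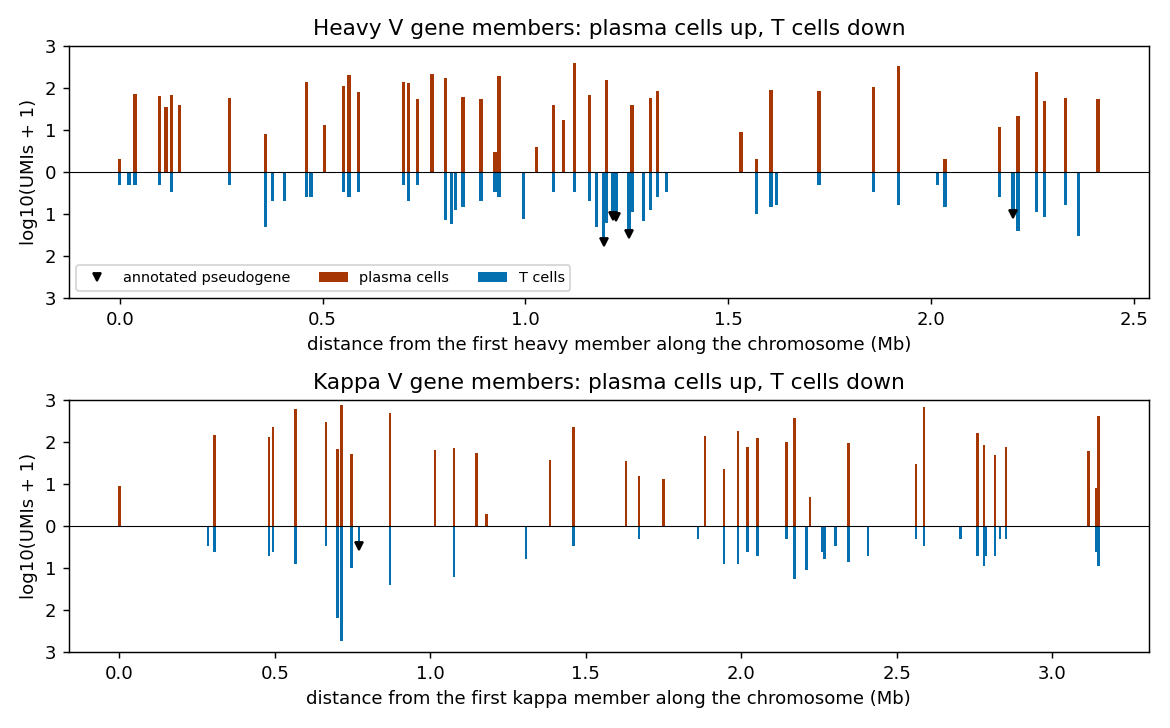
Heavy (top) and kappa (bottom) members along their chromosome, by distance from the first member in Mb; red bars up are plasma cell UMIs and blue bars down are T cell UMIs, both as log10 of UMIs plus 1, and black triangles mark annotated pseudogenes. The 2 deepest T cell bars of the kappa panel are the neighbours Igkv14-111 and Igkv1-110, and 4 of the 5 heavy pseudogenes lie within 1 stretch of the heavy locus.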

How the data were processed

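Raw UMI counts per gene and cell were deposited by the authors; they were made with Cell Ranger 7.0.0, per the file headers, on mm10, per the submitters' processing notes. The labels and headers used here name no annotation release or cell calling step. Of 40606 cells, 33284 had 500 or more UMIs, 200 or more genes and no more than 15% of UMIs from mitochondria, and were kept. Gates by marker genes defined plasma, germinal centre B, other B and T cells, and cells in none of them are called cells in no class. Cells that met a B lineage rule but held 2 or more Cd3d, Cd3e and Cd3g UMIs were left out as mixed (279 cells), and no doublet caller was used in the reported values. Genes were matched to GENCODE M21 by identifier (348 of 348). edgeR 4.0.16 in R 4.3.3 tested UMI sums, with DESeq2 1.42.0 as an alternative. The edgeR test was also run on simulated counts. They were drawn with less spread than the fit found and without single cells rich in a gene. That run thus says nothing on the calls reported here. Replicates are libraries; nothing says which mice they came from, so p-values measure only the spread between these libraries.

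Named genes were the 5 heavy and 5 kappa V genes with the most UMIs and the 5 leading the most cells in each B lineage class, every lambda gene, the leaders of plasma cells per well, the 3 heavy and 3 kappa genes highest in T cells, and the genes called by edgeR or lowest in p; others were named after their values were seen. The members and lists were chosen with earlier results of these data known. Promoter motifs and protein sequences of V genes were not analysed here.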

Additional observations from a re-analysis of the deposited data

How the results depend on the processing

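Depth limits all V gene values outside plasma cells, where most cells had fewer than 3 heavy V UMIs, and saline 1 had only 3 plasma cells. Mixed cells, left out of every class, held 37.4% of all V UMIs; 32 of the 279 met the plasma rule, and 16 of these had just 2 T set UMIs. Allowing up to 5 T set UMIs, a choice made after seeing the data, gave 88 plasma cells.

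Under the alternatives run on it, the plasma V share moved beyond its interval only without the cell with the most V UMIs of each well (0.934%, from 1.01%). The lambda share of light chain V UMIs in plasma cells, 41.1%, became 42.1% at 10% mitochondrial UMIs, 43.7% without the top cells, 40.1% with the files as deposited and 36.2% with up to 5 T set UMIs. The share of Iglv1 among plasma V UMIs, 29.1%, became 30.1%, 31.5%, 28.2% and 25.2% under the same settings. V UMIs in T cells were 7.62 in place of 6.38 CPM with the files as deposited, which count the shared wells again; without barcodes found in more than 1 well they were 6.45. The 2 V genes called in other B cells became 0 with DESeq2 (0 of 94 at an unadjusted p under 0.05), 0 with the shared wells as another saline library, 0 with stricter gates and 0 without the top cells; apart from that last setting, which removes the cell behind both calls, the cause was not tested. No gene at all was called with DESeq2, with the shared wells as another saline library or with stricter gates. With up to 5 T set UMIs, 3 of 8 V genes were called, the only 3 called among 8109 genes.

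The difference in V share between PFF 1 and saline changed sign without saline 1 in plasma cells and without saline 2 in other B cells: it ranged from -0.206 to 0.107 percentage points in plasma cells (all, -0.0494) and from -0.0422 to 0.00512 in other B cells (all, -0.0185). Counted as deposited, 134 V genes would be members. The fit in plasma cells was not run, and no paired analysis was possible because the groups share only 1 replicate number.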

Other observations

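Among kept cells in no class, shared 3 held 1059 V gene UMIs, of which 76.9% were in 1 cell, and Igkv5-43 made up 52.7% of them. The mixed cells of PFF 1 held 2446 V gene UMIs, with Igkv12-44, a gene with no UMI in gated plasma cells, at 23.1% of them. Kappa pseudogenes gave only 1 member of 60, and lambda genes were all members.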
